A study of Mus musculus with 2 samples.

Results

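Of the 2202 miRNA genes counted in mouse cerebral cortex, 9 lie in 3 polycistrons that each join a let-7 gene to a miR-99 or miR-100 gene and a miR-125 gene. The members were chosen by name and position and not by their values, though earlier results of these data were known. They are Mir99b, Mirlet7e and Mir125a on chromosome 17, Mir99a, Mirlet7c-1 and Mir125b-2 on chromosome 16, and Mir100, Mirlet7a-2 and Mir125b-1 on chromosome 9. All 9 were detected at 2 CPM (read counts scaled to a common library total) or more in both libraries. Together they held 6.39% of the counts in replicate 2 and 6.13% in replicate 1, a mean of 6.26% ± 0.183 (SD, n = 2).

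The data are small RNA libraries from total RNA of cerebral cortex of wild-type control mice of strain B6NCrl, with RNA limited to under 30 nt. There is 1 group of 2 libraries, numbered as biological replicates. Both name the same donor record and the fields for age and sex are not filled, although the free text calls the animals female. The labels do not say that the libraries came from separate animals, so the spread between them may be technical in part. There was no treatment or genotype to compare, and the comparisons are between genes, loci and libraries.

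A polycistron is a set of precursors cut from 1 primary transcript, so its members start from equal numbers of precursors if the transcript is read through to its end. Mature levels then depend on how each hairpin is cut by Drosha and Dicer, which strand is kept, and how fast each miRNA decays. Let-7 miRNAs accumulate as cells leave the embryonic state, when the RNA-binding protein LIN28 no longer blocks their precursors. miR-125 is the mammalian counterpart of lin-4, which with let-7 times larval development in Caenorhabditis elegans, and Lin28a is a target of both families in mammals. miR-99 and miR-100 repress components of the mTOR growth pathway in mammalian cells.

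The 5p arms of the 9 genes are shown because they set which genes share targets and which can be told apart in the counts. They fall into 3 families of 3 genes, 1 from each locus, and capitals mark the seed, bases 2 to 8, which is the same within a family (RefSeq, GRCm38.p6, plus strand, 5′ to 3′).
let-7e-5p (Mirlet7e): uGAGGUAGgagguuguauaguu
let-7c-5p (Mirlet7c-1): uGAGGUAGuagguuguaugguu
let-7a-5p (Mirlet7a-2): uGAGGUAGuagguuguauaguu
miR-99b-5p (Mir99b): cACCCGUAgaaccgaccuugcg
miR-99a-5p (Mir99a): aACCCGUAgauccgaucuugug
miR-100-5p (Mir100): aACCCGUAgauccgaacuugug
miR-125a-5p (Mir125a): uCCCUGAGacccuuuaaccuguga
miR-125b-5p (Mir125b-1, Mir125b-2): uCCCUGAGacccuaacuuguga

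Counted from 1 at the 5′ end, let-7e differs from let-7a by G9U alone, and miR-99a from miR-100 by U16A alone. miR-99b differs from miR-99a at 4 positions (C1A, A11U, C16U and C21U), the first of which lies before the seed. The 3p arms tell the gene copies apart, and those of the 4 genes whose 5p arm is shared are given for that reason, again with bases 2 to 8 in capitals.
let-7c-1-3p (Mirlet7c-1): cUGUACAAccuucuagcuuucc
let-7a-2-3p (Mirlet7a-2): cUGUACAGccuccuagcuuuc
miR-125b-1-3p (Mir125b-1): aCGGGUUAggcucuugggagcu
miR-125b-2-3p (Mir125b-2): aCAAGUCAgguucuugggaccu

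All 3 loci lie on the plus strand and have the same order, with the miR-99 family gene first, the let-7 gene next and the miR-125 gene last. The chromosome 17 locus (17830188 to 17830879, mm10, GENCODE M21) spans 692 nt, with 94 nt between Mir99b and Mirlet7e and 367 nt between Mirlet7e and Mir125a. It lies in Spaca6, which encodes a sperm membrane protein needed for fertilization. Mir99b and Mirlet7e are intronic there, and Mir125a overlaps an annotated Spaca6 exon. The chromosome 16 locus (77598936 to 77646343) spans 47.4 kb in introns of the noncoding host Mir99ahg, and 46.5 kb of it separates Mirlet7c-1 from Mir125b-2. The chromosome 9 locus (41531425 to 41582002) spans 50.6 kb in introns of the noncoding gene 3110039I08Rik, which RefSeq names Mir100hg, and 45.1 kb of it separates Mirlet7a-2 from Mir125b-1. Mir125b-2 and Mir125b-1 also overlap exons of other annotated entries on the same strand, C130023A14Rik and Gm28119, and Mir100 an exon of Gm48742 on the opposite strand.

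**Figure D1:**
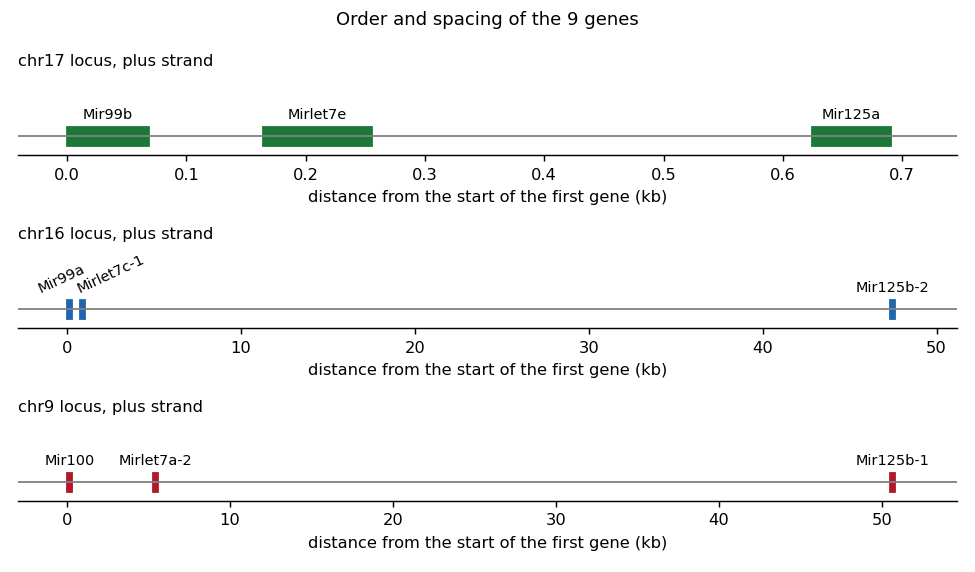
Positions of the 9 genes in kb from the start of the first gene of each locus; boxes are precursors, drawn at a minimum width on chromosomes 16 and 9. All 3 loci keep the order miR-99 family, let-7, miR-125, and the chromosome 17 locus (692 nt) is far shorter than the others (47.4 and 50.6 kb).

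A further question was what each count holds. Reads placed at several loci enter no gene's count, and they made up 47.9% of all reads in replicate 2 and 43.9% in replicate 1. Each of the 18 mature arms was therefore searched in the other annotated precursors (2202 in all), on both strands. Precursors that overlap the gene itself were left out, such as Gm25927, which spans Mirlet7e on the other strand. For Mir99b, Mirlet7e, Mir125a, Mir99a and Mir100, neither arm was found in a precursor at another place, and none of their 22-nt windows was. let-7c-5p is also held by Mirlet7c-2, let-7a-5p by Mirlet7a-1, and miR-125b-5p by both Mir125b genes. The run shared by the 2 Mir125b precursors is 24 nt long and reaches 2 bases before the mature 5p arm and none after it. Those shared by the let-7c pair and the let-7a pair are each 23 nt long and reach 1 base past the 3′ end. A read of exactly these 5p arms is thus in no gene's count, and the counts of Mirlet7c-1, Mirlet7a-2, Mir125b-1 and Mir125b-2 are not levels of let-7c, let-7a or miR-125b. Matches elsewhere in the genome were not searched.

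Levels of the 9 genes ran from 168 to 22673 CPM and split by that search. The 5 genes with arms of their own had between 3368 and 22673 CPM in every library, and the 4 genes with a shared 5p arm between 168 and 906 CPM. Those 5 genes held 6.20% of all counts in replicate 2 and 5.92% in replicate 1, and the 4 others 0.192% and 0.207%. For all 1018 genes matched to RefSeq mature sequences, only the arms listed under each gene's symbol were searched. Mirlet7a-2, whose 5p arm is listed under its copy Mirlet7a-1, thus fell among those without a shared arm. The median was 0.738 CPM for the 907 with no listed arm in another precursor and 0.215 CPM for the 111 with one. The share at 100 CPM or more was no lower in the second set, at 19.8% (22 genes) against 17.9% (162 genes) in the first, and at 1000 CPM or more it was 7.21% (8 genes) against 8.71% (79 genes). RNA was limited to under 30 nt and the arms are 21 to 24 nt long, so a read stands for a whole small RNA, and counts were not divided by precursor length. Small RNA sequences differ in how well they are ligated, so a ratio of counts is not a ratio of molecules. In tissue RNA, fewer cells of a type and less RNA per cell cannot be told apart.

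Mirlet7e was the highest of the 9, at 22673 CPM in replicate 2, against 19483 in replicate 1, a mean of 21078 ± 2256 (SD, n = 2) and the 10th place of all genes. Mir125a, whose product shares its seed with miR-125b, had 15522 and 17383 CPM in replicates 2 and 1, a mean of 16452 ± 1316. Mir99b, the first gene of the same locus, had 5636 and 10306 CPM, a mean of 7971 ± 3302. Mirlet7e and Mir125a kept their order in both libraries with ranges that do not overlap, while Mir99b varied most of the 3. The exact 95% counting intervals were narrow beside this spread (5581 to 5692 CPM for Mir99b in replicate 2, and 10213 to 10401 CPM in replicate 1).

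Mir99a led the chromosome 16 locus, at 11314 CPM in replicate 2, against 8672 in replicate 1, a mean of 9993 ± 1868 (SD, n = 2). Mir125b-2 had 745 and 638 CPM in replicates 2 and 1, a mean of 691 ± 75.9. Mirlet7c-1 had 329 and 318 CPM, a mean of 324 ± 7.99, the smallest relative spread of the 9. All 3 had a higher CPM in replicate 2, and with the trend in base composition described below removed Mirlet7c-1 did not. Mir100 led the chromosome 9 locus, at 6807 CPM in replicate 2, against 3368 in replicate 1, a mean of 5088 ± 2432. Mir125b-1 had 674 and 906 CPM in replicates 2 and 1, a mean of 790 ± 164. Mirlet7a-2 was lowest of all 9, with 168 and 206 CPM, a mean of 187 ± 26.8. The leading gene of this locus was thus high in replicate 2, while its other genes were lower there.

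By mean level the order was Mirlet7e, Mir125a, Mir99a, Mir99b, Mir100, Mir125b-1, Mir125b-2, Mirlet7c-1 and Mirlet7a-2. The ranges over the 2 libraries overlapped for 3 neighbours in that order, Mir99a with Mir99b, Mir99b with Mir100, and Mir125b-1 with Mir125b-2. Mir100 and Mir125b-1, either side of the step between the 5 genes and the 4, differed by 6.44 times in mean level. With 2 libraries an exact sign-flip test cannot go below a two-sided p of 0.5, so no order was tested.

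**Figure D2:**
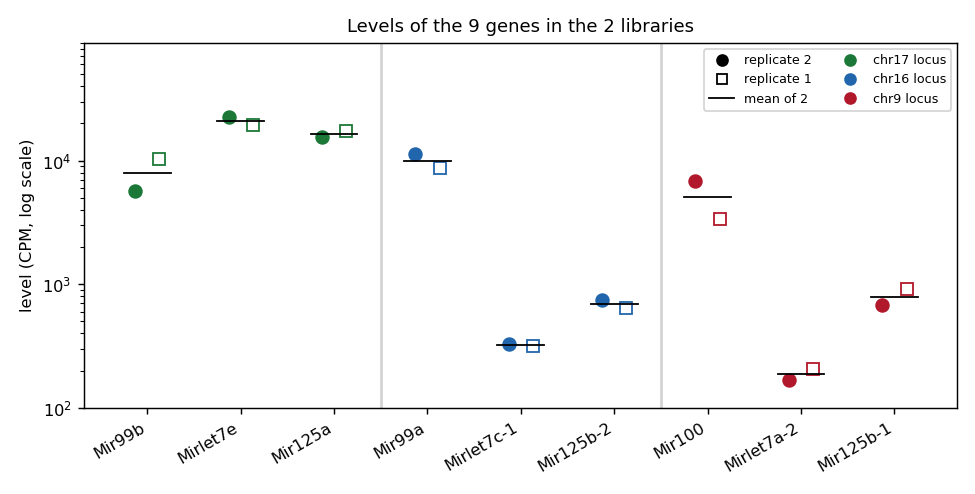
Level of each gene (CPM, log axis) in replicate 2 (filled circles) and replicate 1 (open squares), with the mean as a line and colours for the loci. Mirlet7e, Mir125a and the 3 miR-99 family genes lie at 3368 CPM or higher, and the 4 genes with a shared 5p arm at 906 CPM or lower.

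Within the chromosome 17 locus, where no arm was found in a precursor at another place, let-7 led, followed by miR-125 and then miR-99. Mirlet7e had 4.02 times the count of Mir99b in replicate 2 (exact 95% counting interval 3.98 to 4.07) and 1.89 times in replicate 1 (1.87 to 1.91). For Mir125a over Mir99b the ratio was 2.75 in replicate 2 (2.72 to 2.79) and 1.69 in replicate 1 (1.67 to 1.71). Mirlet7e over Mir125a was steadiest, at 1.46 in replicate 2 (1.45 to 1.47) and 1.12 in replicate 1 (1.11 to 1.13). That order held in both libraries, and the size of the steps did not. Mir99b held 12.9% of the locus in replicate 2 and 21.8% in replicate 1, Mirlet7e 51.7% and 41.3%, and Mir125a 35.4% and 36.8%.

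In the other 2 loci the miR-99 family gene held most of the counts, the reverse of its last place on chromosome 17. Mir99a held 91.3% of the chromosome 16 locus in replicate 2 and 90.1% in replicate 1. Mir100 held 89.0% of the chromosome 9 locus in replicate 2 and 75.2% in replicate 1. These shares compare a gene with arms of its own with genes that lack their exact 5p reads, so how far they would fall with those reads included was not tested. Mir125b-2 over Mir99a was 0.0658 in replicate 2 and 0.0735 in replicate 1, and Mir125b-1 over Mir100 was 0.099 and 0.269. The ratio of let-7 to miR-125 gene, between genes that both lack exact 5p reads, was similar in the 2 libraries in each locus. Mirlet7c-1 over Mir125b-2 was 0.442 in replicate 2 (0.421 to 0.465) and 0.499 in replicate 1 (0.468 to 0.532), and Mirlet7a-2 over Mir125b-1 was 0.25 (0.234 to 0.267) and 0.228 (0.212 to 0.245).

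**Figure D3:**
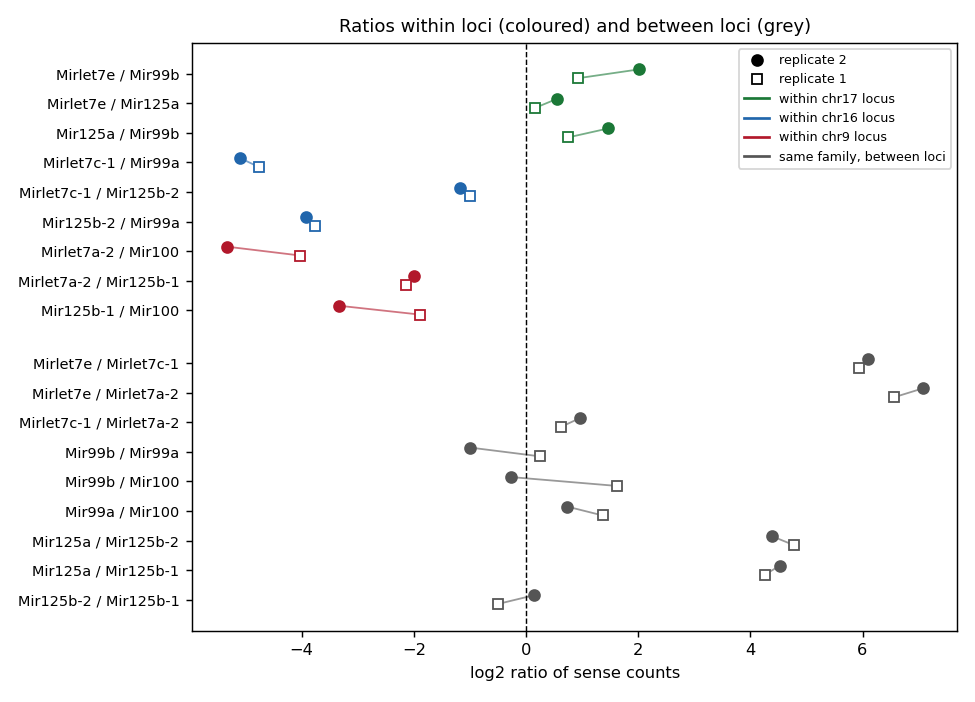
Log2 ratio of sense counts for the 9 pairs within a locus (coloured) and the 9 pairs of a family between loci (grey), in replicate 2 (filled circles) and replicate 1 (open squares); the dashed line marks equal counts. Points right of it favour the first gene named. Mir99b over Mir100 moves most, with log2 ratios of -0.27 in replicate 2 and 1.61 in replicate 1.

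Between loci, the miR-99 family is the one in which no arm of the 3 genes was found in a precursor at another place. Its makeup changed more between the libraries than its sum did. The family summed to 23757 CPM in replicate 2 and 22346 CPM in replicate 1, a ratio of 1.06, or 1.16 with the TMM scaling used below. Mir99a held 47.6% of it in replicate 2 and 38.8% in replicate 1. Mir99b held 23.7% and 46.1% in replicates 2 and 1, and Mir100 held 28.7% and 15.1%. Mir99b was therefore the lowest of the 3 in replicate 2 and the highest in replicate 1. Mir99b over Mir100 was 0.828 in replicate 2 (0.817 to 0.839) and 3.06 in replicate 1 (3.004 to 3.12), a change of 3.70 times that was the largest of the 18 pairs. Mir99b over Mir99a was 0.498 in replicate 2 and 1.19 in replicate 1, and Mir99a over Mir100, which differ by 1 base in the 5p arm, was 1.66 and 2.58. Mir99a stayed above Mir100 in both libraries.

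**Figure D4:**
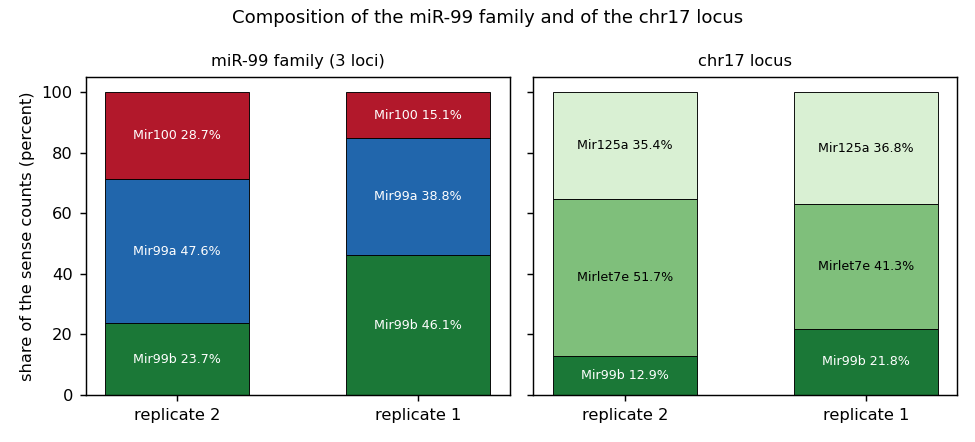
Share of sense counts (percent) taken by each gene of the miR-99 family over the 3 loci (left) and by each gene of the chromosome 17 locus (right), in replicate 2 and replicate 1. Mir99b took 23.7% of its family in replicate 2 and 46.1% in replicate 1, and Mir100 took 28.7% and 15.1%.

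For the other families the ratios between loci set genes with and without their exact 5p reads side by side. Mirlet7e over Mirlet7c-1 was 68.8 in replicate 2 and 61.3 in replicate 1, and Mirlet7e over Mirlet7a-2 was 134.6 and 94.4. Mir125a over Mir125b-2 was 20.8 and 27.3 in replicates 2 and 1, and over Mir125b-1 it was 23.0 and 19.2. Among the genes with shared arms, Mirlet7c-1 over Mirlet7a-2 was 1.95 and 1.54. Mir125b-2 over Mir125b-1, the 2 sources of miR-125b, was 1.11 in replicate 2 (1.06 to 1.15) and 0.704 in replicate 1 (0.67 to 0.738), so their order turned between the libraries.

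How far the libraries differ at these genes was examined with replicate 2 over replicate 1 after TMM scaling of the counts. With 1 library on each side there is no test, and a gene was called at a ratio of at least 1.5 either way. Of the 9 genes 2 were called, against 43.2% of all 438 detected genes, and at 2 times 1 was, Mir100, against 18.3%. The median log2 ratio of the 9 was 0.18, against -0.03 over all detected genes (-0.16 with library totals). Mir100 was higher in replicate 2, with 47553 counts there and 14920 in replicate 1, which gave a log2 ratio of 1.14 with an exact 95% counting interval of 1.11 to 1.17. Mir99b was lower in replicate 2, with 39373 counts there and 45654 in replicate 1, which gave -0.75 (-0.76 to -0.73). The other 7 lay between -0.30 for Mir125b-1 and 0.51 for Mir99a, with Mir125a at -0.04 and Mirlet7e at 0.34.

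Since a pair ratio within a library needs no scaling, its change between the libraries was set beside that of all pairs of well-counted genes, their own included. Of the 36 pairs of the 9 genes, 17 changed by at least 1.5 times, against 60.3% of the 19503 pairs among the 198 genes averaging at least 100 CPM, and the median change was 1.48 times against 1.70 times. Of the 9 pairs within a locus 4 did so, and all 4 hold Mir99b or Mir100. They were 3 of the 5 pairs that lie within 10 kb of each other, against 51.9% of all 183 pairs of such genes within 10 kb on 1 strand, and 1 of the 4 pairs that lie farther apart. At 2 times the count was 7 of 36, against 38.2% of all pairs. The 3 pairs of the chromosome 16 locus changed by 1.12 to 1.26 times.

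Over all detected genes the ratio of replicate 2 to replicate 1 fell as the GC content of the precursor rose, and the 9 genes followed that trend only in part. Mir99b has the highest GC content of the 9 precursors, 67.1%, and 63.6% in its 5p arm, while Mir100 has 47.5% and 50%. Mirlet7e, with the next highest precursor value at 62.4%, had a log2 ratio of 0.34, and Mirlet7a-2, with the lowest at 45.8%, had -0.17, and both go against the trend. With that trend removed, Mir100 stayed at 0.90, Mir99b was at -0.26 and no longer called, and Mirlet7e was at 0.65 and called. The change of Mir99b over Mir100 was then 2.25 times in place of 3.70, below the 2.57 times of Mirlet7a-2 over Mir100. Of the 36 pairs 15 then changed by at least 1.5 times, with calls both lost and gained. Mir125a over Mir99b, 10 kb or less apart, went from 1.63 to 1.38 times. Mirlet7e over Mir125a went from 1.30 to 1.37 times, so it was no longer clearly the steadiest pair of its locus. Mirlet7e over Mirlet7c-1 went from 1.12 to 1.67 times, and over Mirlet7a-2 from 1.43 to 2.16. The pairs within the chromosome 16 locus then changed by 1.16 to 1.46 times, in place of 1.12 to 1.26. The largest of these was Mirlet7c-1 over Mir99a. Adapter trimming is described in a different document for each library, so trimming and replicate cannot be told apart.

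**Figure D5:**
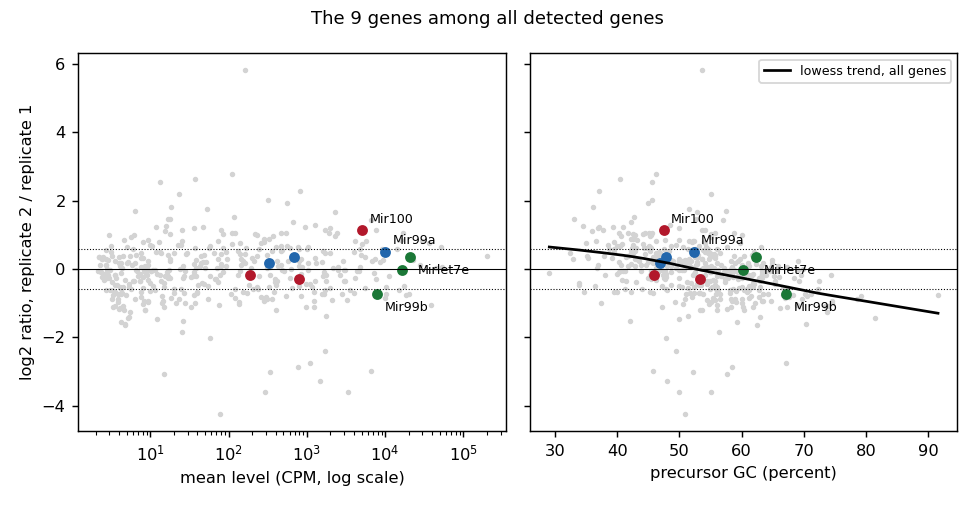
Log2 ratio of replicate 2 over replicate 1 for all 438 detected genes (grey) and the 9 genes (coloured by locus), against mean level (CPM, log axis, left) and precursor GC content (percent, right); dotted lines mark 1.5 times either way, and the black curve is the lowess trend. Mir100 lies above the upper line at 1.14 and Mir99b below the lower one at -0.75.

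Relatives outside the 3 loci give these levels a scale. The 9 other let-7 genes summed to 16.4% of the counts in replicate 2 and 13.6% in replicate 1, and the 3 let-7 genes of the loci to 2.32% and 2.00%. The highest was Mirlet7b at 53076 ± 2021 CPM (SD, n = 2), and Mirlet7e had 0.439 times its count in replicate 2 and 0.357 times in replicate 1. The lowest was Mirlet7f-1 at 47.0 ± 24.4 CPM. Mirlet7a-1, Mirlet7c-2, Mirlet7f-1 and Mirlet7f-2, whose 5p arms are shared, had mean levels of 47.0 to 830 CPM. Mirlet7b, Mirlet7d, Mirlet7g and Mirlet7i, with arms of their own, had 28197 to 53076 CPM. Mir98 is the exception, since its arms were found in no other precursor and its level was 539 ± 239 CPM. Mir351, which shares the miR-125 seed, was at 155 ± 7.55 CPM. Mir10a, of the miR-10 family related to miR-99, was at 7.43 ± 0.989 CPM, and Mir10b, with 11 and 10 counts in replicates 2 and 1, fell short of 2 CPM in replicate 2. Of the 11 detected relatives, 6 were called, all higher in replicate 2, against 19.2% of detected genes called higher there.

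Replicate 2 held 6985784 and replicate 1 held 4429633 sense counts in genes, so a count of 0 allows up to 0.429 and 0.677 CPM. Markers of neurons summed to 8.33% of the counts in replicate 2 and 6.48% in replicate 1, with 7 of 10 genes detected and none at 0 in both libraries. The 3 not detected were Mir124a-1, Mir124a-2 and Mir124a-3, and Mir132 alone had a mean of 52078 CPM. These Mir124a genes are numbered copies, and reads placed at several loci enter no gene's count. Their low counts therefore cannot be read as absence of miR-124. Oligodendrocyte markers summed to 0.785% and 0.711%, with 3 of 3 detected, and choroid plexus and ependyma markers to 0.247% and 0.117%, with 5 of 5. Epithelial markers summed to 0.206% in replicate 2 and 1.28% in replicate 1 (7 of 7 detected), and those of the Mir183 cluster to 0.163% and 1.47% (3 of 3 detected). Markers of astrocytes and other glia summed to 3.98% and 3.32% (3 of 3 detected), and of 2 red blood cell markers 0 were detected. No marker of these lists was at 0 in both libraries, which is a lower bar than detection at 2 CPM. The part of these cell types in the ratios of Mir99b and Mir100 was not tested. Of 5 muscle markers 4 were at 0, all of them numbered copies.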

How the data were processed

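The authors deposited raw read counts per annotated miRNA gene, 1 table per library, in an unstranded column and 1 column per strand, on mm10 with annotation M21 per the deposited readme text. The aligner and counter were not given in the sources used here. The 4 summary lines that name no gene were left out. They hold unmapped reads (11.1% of replicate 2, 17.0% of replicate 1), reads placed at several loci (47.9% and 43.9%), reads outside genes and ambiguous reads. Reads outside genes were 2.81% and 3.67% in the stranded column used below. Ambiguous reads were 2.15% and 1.74% in the unstranded column, not in the column used below.

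Column 3, the stranded column with the larger total, was scaled to CPM of all gene lines. No opposite-strand count lay at any of the 9 genes. Mirlet7e is at 0 in the unstranded column, since Gm25927 overlaps it on the other strand, so column 3 is used. Symbols came from GENCODE M21 and sequences from RefSeq (GRCm38.p6), which matched all 9 genes, with let-7a-5p located in Mirlet7a-2 by its letters.

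Ratios between libraries used TMM factors from detected genes (edgeR 4.0.16), with 0.5 counts added. Alternatives used library totals, DESeq2 1.42.0 size factors, other gene filters, other fold limits and the unstranded column. A lowess trend on precursor GC (statsmodels 0.14.6) was added after seeing the data. Intervals are exact (Clopper-Pearson, 95%) and, like floors of 3 counts, cover counting error only. The genes named are the 9 members, the relatives by range with the highest and lowest, and for each member the gene outside the 9 nearest in level over both libraries. The members, relatives and marker lists were chosen with earlier results of these data known. Relatives and markers with values beyond that rule were named after their values were seen.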

Additional observations from a re-analysis of the deposited data

How the results depend on the processing

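No paired analysis was possible because the series has 1 group of libraries. The share of the 9 genes, 6.26%, was 7.80% of the total without Mir139, 5.75% of all uniquely placed reads and 4.38% with the unstranded column. For the chromosome 17 locus, 4.55% became 5.67%, 4.18% and 2.58% under the same settings, and for the chromosome 16 locus 1.10% became 1.38% without Mir139. Mirlet7e is listed at 0 in the unstranded column, so ratios with it have no value there. With single libraries left out, log2 ratios ran from -1.01 to 0.25 for Mir99b over Mir99a, from -0.27 to 1.61 for Mir99b over Mir100, and from -0.51 to 0.14 for Mir125b-2 over Mir125b-1. They ran from -5.34 to -4.03 for Mirlet7a-2 over Mir100 and from -3.34 to -1.89 for Mir125b-1 over Mir100, so these ratios depend on the library, as those of Mir99b do. With 2 libraries, leaving 1 out cannot move a mean by more than its SD, so that setting says nothing about the stability of the others. With other added counts or the unstranded column, no pair ratio that has a value there changed sign or moved by more than its SD.

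The 189 genes past 1.5 times became 459 of 787 genes with any count, 83 of 185 genes at 100 CPM or more, and 80 at 2 times (18.3% of detected genes). At 2 times 1 of the 9 genes (Mir100), 7 of their 36 pairs and 38.2% of all pairs were called. Mir99a reached 0.61 with TMM over every gene with a count, a call. The log2 ratio between libraries changed sign for Mirlet7b (-0.0777 with library totals, -0.0174 at 100 CPM or more and -0.019 with the GC trend removed), Mirlet7d (-0.0145 with library totals, -0.22 without the trend), Mir125a (0.0604 with every gene, 0.20 without the trend) and Mirlet7c-1 (-0.0837 without the trend), none of them called. Without the trend Mirlet7a-1 lost its call at 0.48 and Mir10a reached -0.61. The cause was not tested in any of these. Depth was not the limit for the 9 genes, whose lowest count was 914.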

Other observations

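The gene copies that share the let-7c and let-7a 5p arms with Mirlet7c-1 and Mirlet7a-2 lie outside the 3 loci. Mirlet7c-1 had 0.374 times the count of Mirlet7c-2 in replicate 2 (exact 95% counting interval 0.356 to 0.392) and 0.408 times in replicate 1 (0.384 to 0.435). Mirlet7a-2 had 0.406 times the count of Mirlet7a-1 in replicate 2 (0.379 to 0.435) and 0.836 times in replicate 1 (0.765 to 0.914). The let-7c pair thus kept its ratio more closely than the let-7a pair, whose ratio changed by 2.06 times. The 3p arms of Mirlet7a-1 and Mirlet7c-2 have the same letters, so reads of that arm are missing from both of their counts, while those of Mirlet7a-2 and Mirlet7c-1 are found in no other precursor.

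Over both libraries the genes nearest in level were Mir151 for Mir99b, Mir23b for Mirlet7e, Mir652 for Mir125a, Mir487b for Mir99a and Mir34a for Mir100. For the 4 genes with shared arms they were Mir3099 for Mirlet7c-1, Mir300 for Mir125b-2, Mir30c-1 for Mirlet7a-2 and Mir540 for Mir125b-1. The larger of the differences in log2 CPM ran from 0.04 for Mir3099 to 0.29 for Mir652. With 2 libraries this is likeness in level, and no likeness in pattern can be read from it.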
